A study of Homo sapiens with 16 samples.

Results

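The genes described here are 52 extracellular matrix and matrix-modifying genes, out of 19974 protein-coding genes on chromosomes 1 to 22 and X. They were listed by the function of their products. Their roles fall into 6 groups: 7 matricellular and adhesive glycoproteins, 11 basement membrane genes, 4 proteoglycans, 10 genes of the elastic fibre, 11 enzymes and chaperones of collagen processing and crosslinking, and 9 collagens, most of them non-fibrillar. A gene was counted as holding a peak when the summit lay in the gene or within 10 kb of it.

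The extracellular matrix is the secreted scaffold around cells: fibrous collagens and elastic fibres carry load, laminins, nidogens and perlecan form the basement membrane, and matricellular proteins tune adhesion. Lysyl oxidases, lysyl hydroxylases and prolyl hydroxylases modify and crosslink collagen. TGF-beta is a classic inducer of matrix production. Its receptors phosphorylate SMAD2 and SMAD3, which enter the nucleus and bind DNA together with other factors, among them the AP-1 family. In melanoma, matrix genes are active in the tumour cells themselves as well as in the surrounding stroma.

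The study used chromatin immunoprecipitation with sequencing in A375 cells, an established line from a human melanoma, so all values come from 1 line. Cells were serum-starved for 2 h and then received 10 ng/mL recombinant human TGFB1 for 2 h, or for the same time its vehicle, which was 4 mM HCl with 1 mg/mL BSA. Both groups were starved. Antibodies (10 µg) recognised SMAD2/3, the acetylated histone mark H3K27ac of active promoters and enhancers, the pigment cell regulator MITF, and the bZIP factors ATF3 and JUNB, which can act within AP-1 dimers. There were 10 peak lists, 1 library for every pairing of an antibody with a treatment. The labels speak of technical triplicates, yet list 1 library per pairing, so no difference reported here has a replicate check and no p-value was computed. Intervals in parentheses are 95% Wilson intervals and cover counting error only.

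Sizes implied by the peak values, which are estimates, lay between 6.37 and 10.2 M (mega) reads for both SMAD2/3 libraries, both MITF libraries and the vehicle ATF3 library, and between 21.5 and 47.7 M reads for the other 5. The ATF3 pair was the most unequal, at 6.37 M reads in vehicle and 28.1 M with TGFB1, so depth and treatment cannot be told apart for ATF3. Vehicle H3K27ac lay within 1 kb of a gene end at 63.2% of all protein-coding genes. Of 10 melanocyte lineage genes, 6 had it there, near that share, while MLANA and DCT had no vehicle H3K27ac summit within 10 kb. The mark lay at an end of 3 of 4 genes of dedifferentiated melanoma and 2 of 8 fibroblast genes. It also lay at an end of 1 of 5 endothelial, 1 of 5 immune and 2 of 5 epithelial genes. These lists are short, and no difference from all genes was tested. PDGFRB and LUM were the fibroblast genes with a mark there, and LUM is also a member of the matrix set.

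In 7 matrix genes a SMAD2/3 summit of the TGFB1 library fell within the 250 bases before an annotated start. These were MFAP2, LAMA3, THBS1, LAMC1, LOXL4, HSPG2 and PLOD2. The windows of 5 of them are shown because they differ in which other factors had peaks there. They come from the RefSeq promoter table (GRCh38), which matched 42 of the 52 genes, and run 5′ to 3′ on the strand of the gene up to the base before the start. Capitals mark matches to any of 6 short motifs searched on both strands: the SMAD motifs CAGAC (or GTCTG) and GGCGC (or GCGCC), the AP-1 motif TGAGTCA (or TGACTCA), the CRE motif TGACGTCA, and the E-boxes CACGTG and TCATGTG (or CACATGA). Adjoining or overlapping matches run together.
MFAP2: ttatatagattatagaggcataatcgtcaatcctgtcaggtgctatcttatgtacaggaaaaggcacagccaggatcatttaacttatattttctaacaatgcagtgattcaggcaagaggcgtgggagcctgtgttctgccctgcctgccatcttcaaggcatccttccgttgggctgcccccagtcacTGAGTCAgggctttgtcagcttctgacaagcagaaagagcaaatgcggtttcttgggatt
LAMA3: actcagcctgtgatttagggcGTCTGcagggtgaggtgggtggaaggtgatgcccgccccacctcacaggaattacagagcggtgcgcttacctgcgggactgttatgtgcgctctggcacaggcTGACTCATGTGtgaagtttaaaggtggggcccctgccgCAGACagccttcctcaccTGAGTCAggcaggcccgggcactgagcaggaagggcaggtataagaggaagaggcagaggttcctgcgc
THBS1: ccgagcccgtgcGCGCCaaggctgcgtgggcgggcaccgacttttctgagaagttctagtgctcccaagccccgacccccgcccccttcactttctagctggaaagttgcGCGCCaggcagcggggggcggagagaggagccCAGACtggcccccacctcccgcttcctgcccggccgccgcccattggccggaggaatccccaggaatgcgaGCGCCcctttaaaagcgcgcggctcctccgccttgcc
LAMC1: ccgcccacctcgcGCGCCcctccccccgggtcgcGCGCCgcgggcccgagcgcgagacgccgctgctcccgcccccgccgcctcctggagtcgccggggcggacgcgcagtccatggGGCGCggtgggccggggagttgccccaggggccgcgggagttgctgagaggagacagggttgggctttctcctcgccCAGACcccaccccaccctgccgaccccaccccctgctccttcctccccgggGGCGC
LOXL4: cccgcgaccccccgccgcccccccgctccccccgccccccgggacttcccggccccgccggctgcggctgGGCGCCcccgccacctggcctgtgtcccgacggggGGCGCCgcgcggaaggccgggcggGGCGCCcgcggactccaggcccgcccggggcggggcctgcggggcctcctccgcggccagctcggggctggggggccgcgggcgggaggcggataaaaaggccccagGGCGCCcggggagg

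The MFAP2 window (chr1:16981584-16981833, minus strand) held its SMAD2/3 summit 107 bp before the start, 1 AP-1 motif, and peaks of H3K27ac, ATF3 and JUNB in both treatments. The LAMA3 window (chr18:23872770-23873019, plus strand) precedes an internal start of the long laminin gene. It held 2 AP-1 motifs, 1 of them overlapping a TCATGTG match, with H3K27ac and JUNB called there with TGFB1 and not in vehicle. The THBS1 window (chr15:39580829-39581078, plus strand) carried H3K27ac in both treatments and JUNB with TGFB1, without an AP-1 match. In LAMC1 (chr1:183023170-183023419, plus strand) H3K27ac was called in both treatments, and JUNB and MITF peaks reached the window in vehicle and not with TGFB1. Whether these factors were lost from the window was not tested. The LAMC1 SMAD2/3 peak spans 952 bp and overlapped JUNB, ATF3 and MITF peaks of the TGFB1 libraries just outside the window. The LOXL4 window (chr10:98268195-98268444, minus strand), like those of HSPG2 and PLOD2, carried H3K27ac in both treatments and no peak of JUNB, ATF3 or MITF. Of the 7 windows, 2 held the AP-1 motif, which is present in 3.45% of all 22132 upstream windows. CAGAC was in 5 of 7 against 37.3% of all windows, and GGCGC was in 5 of 7 against 55.1%. The LOXL4 window is 86.4% G and C, against a median of 62% for all windows. TCATGTG was in 1 of 7 (1.99% of all windows), and neither TGACGTCA (2.02%) nor CACGTG (7.37%) was in any of the 7. These matches describe letters in a short window and are not sites.

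The first comparison asked where SMAD2/3 lay at matrix genes with and without the ligand. With TGFB1, 30 of the 52 genes (57.7%) had at least 1 SMAD2/3 summit, against 28.2% of all protein-coding genes. In vehicle none had one, against 1.77% of all genes. The 30 genes include the adhesive protein TGFBI, 9 basement membrane genes, 4 lysyl oxidases of the LOXL family and 5 collagens. The 4 genes of the proteoglycan group had no SMAD2/3 summit. At least 2 summits were found at 16 genes (30.8%), against 9.53% of all genes. Because long genes offer more room for a summit, each member was also set beside the 500 protein-coding genes nearest to it in length: on average 32.1% of those had a SMAD2/3 summit, which corresponds to 16.7 of 52 genes. The 52 genes held 64 SMAD2/3 summits where genes of similar length held 26.9.

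**Figure D1:**
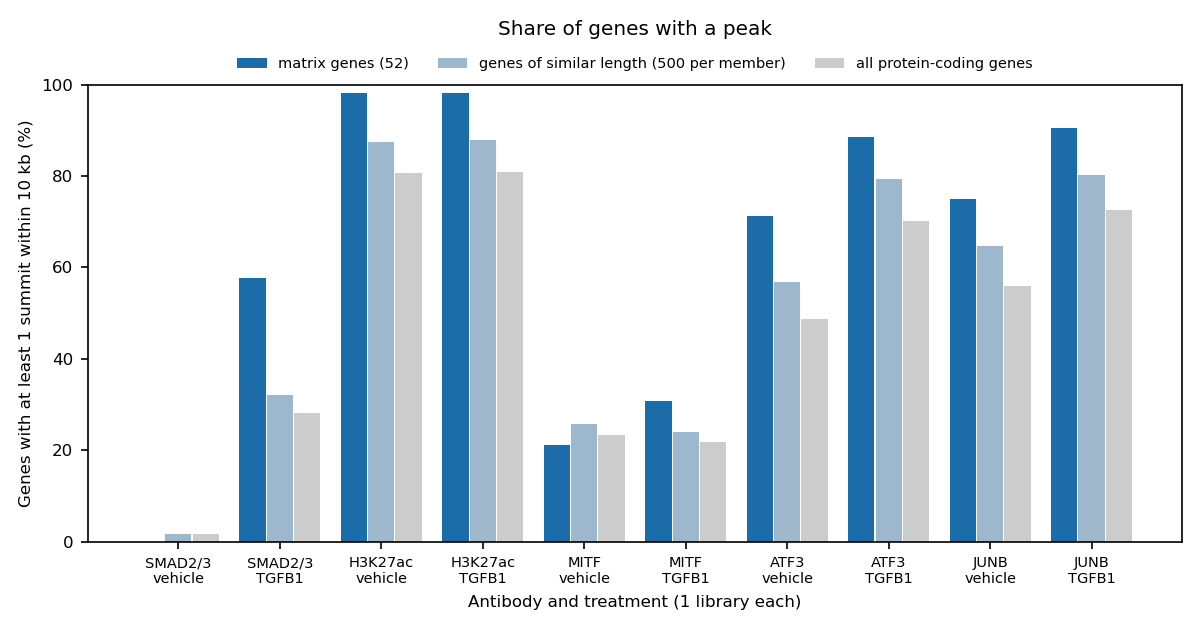
Bars give the percentage of genes with at least 1 peak summit in the gene or within 10 kb, for the 52 matrix genes, the genes of similar length and all protein-coding genes, in each of the 10 libraries. SMAD2/3 with TGFB1 shows the widest gap, 57.7% of matrix genes against 28.2% of all genes, while MITF shows shares of 21.2% and 30.8% on either side of the background.

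The vehicle SMAD2/3 list was short and lay mostly away from genes. It held 1175 peaks on the chromosomes used, of which 265 were near a protein-coding gene, against 7136 of 11302 with TGFB1. Of the SMAD2/3 peaks near any protein-coding gene, 8.97 per 1000 (7.03 to 11.4) lay at a matrix gene with TGFB1, and 0 per 1000 in vehicle, where counting error allows up to 14.3 per 1000. None of the 64 peaks overlapped a vehicle SMAD2/3 peak (0 of 64, 0 to 5.66%). When the TGFB1 list was shortened to the length of the vehicle list by its strongest peaks, 5 matrix genes remained with a peak (3.46% of all genes), and when it was shortened to the same number of peaks near genes, 1 remained (1.54% of all genes). With summits in the gene alone, 17 members had one, against 18.3% of all genes.

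**Figure D2:**
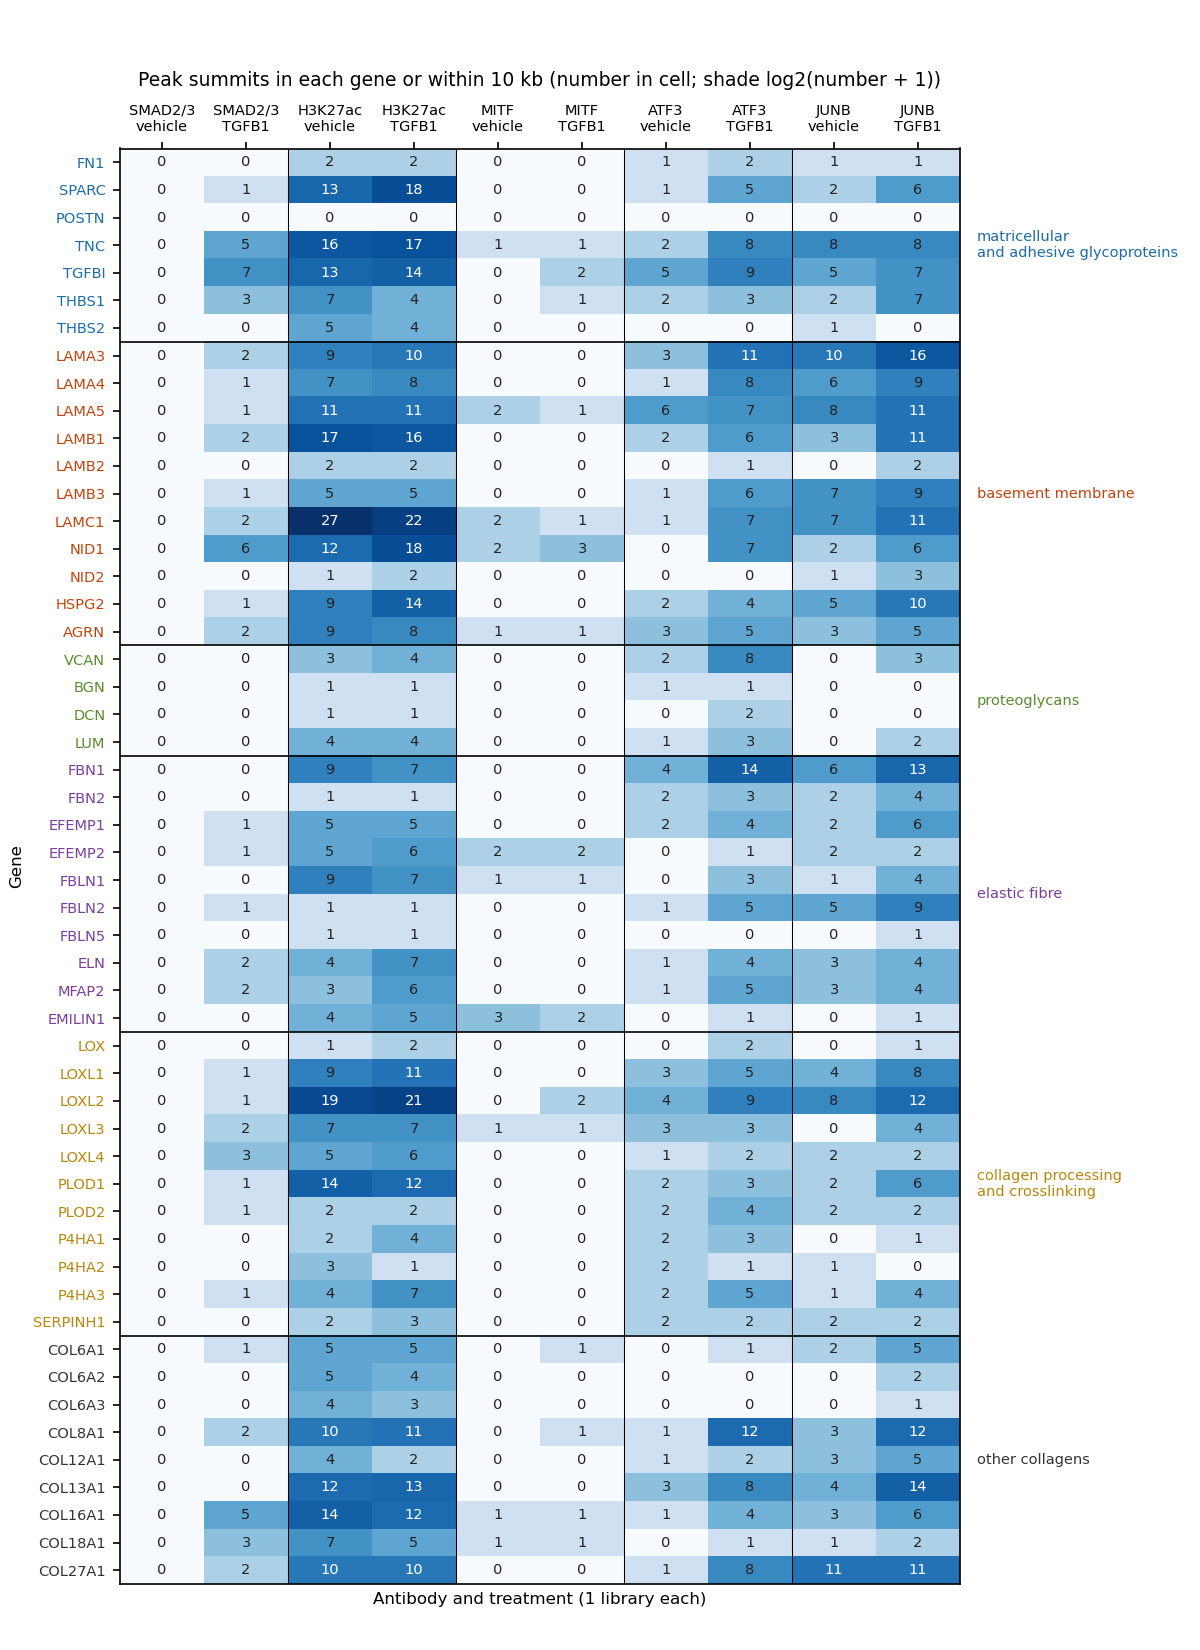
Each cell gives the number of peak summits in the named gene or within 10 kb, for 52 genes (rows, grouped by role) and 10 libraries (columns, 1 library each); darker shade is a higher number on a log2 scale. The SMAD2/3 vehicle column is 0 throughout, and the SMAD2/3 TGFB1 column reaches 7 at TGFBI.

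Among the matricellular and adhesive glycoproteins, 4 of 7 genes gained SMAD2/3 summits, 16 in all. TGFBI, a secreted adhesion protein first found as a TGF-beta-induced transcript, went from 0 to 7 summits, and none of the 500 genes of similar length had as many. Its strongest peak covered chr5:136020391-136020868, 8.4 kb before the start. Fold enrichment there, the authors' ratio of pileup over local background, was 30.5, with a -log10 p of 94.8 and a recovered pileup of 71 reads. It ranked 89th by -log10 p among the 11302 SMAD2/3 peaks and was the strongest of the 64. Another 5 of the TGFBI peaks lay inside the gene, the second of them by position at chr5:136037209-136037655 (fold enrichment 8.2) and the third at chr5:136042838-136043168 (fold enrichment 11). TNC, the anti-adhesive hexabrachion tenascin-C, went from 0 to 5 summits, with fold enrichments from 3.41 to 8.24. THBS1, which encodes thrombospondin-1, an activator of latent TGF-beta, went from 0 to 3, all with fold enrichments of 5.38 or less. Both THBS1 peaks nearest its start also lie inside the overlapping gene model LOC124903470. SPARC, a collagen-binding glycoprotein, had 1 summit 1.93 kb into the gene (fold enrichment 5). FN1, the fibronectin gene and a textbook TGF-beta-responsive gene, had none in either list, and its nearest SMAD2/3 summit lay 92.7 kb away. THBS2 and POSTN had none.

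The basement membrane genes had the highest share of the 6 groups, with 9 of 11 genes and 18 summits. The groups differ in gene length, and their shares were not set beside genes of similar length. Gene by gene, the share of similar-length genes with a SMAD2/3 summit ran from 23% for LAMB2 to 53.6% for LAMA3 in this group. NID1, the laminin and collagen IV linker nidogen-1, had 6 summits, a number reached by 0.2% of genes of similar length. All 6 lay in the gene, between 6.68 and 85.3 kb from the start. The strongest of them (chr1:236024393-236025013, fold enrichment 7.54, -log10 p 16.1) lay on MITF peaks of both treatments and on no JUNB or ATF3 peak. LAMB3 and LAMA3 encode the beta and alpha chains of laminin-332, the epithelial basement membrane laminin. The single LAMB3 peak (chr1:209653059-209653369, fold enrichment 6.79, -log10 p 23.8) stood 0.791 kb before the start on JUNB and ATF3 peaks. LAMA3 had 2, at chr18:23871354-23871788 (fold enrichment 7.96, -log10 p 15.9) and in the upstream window shown above. LAMB1, a beta chain of many laminins, had a peak inside the gene on H3K27ac and no other factor (chr7:107946924-107947226, fold enrichment 7.6, -log10 p 16.2) and a second with JUNB and ATF3 (fold enrichment 8.56). LAMC1, the gamma chain shared by most laminins, and AGRN, the heparan sulfate proteoglycan agrin, had 2 each. HSPG2 (perlecan), LAMA4 and LAMA5 had 1 each. The AGRN peak at chr1:1064222-1064433 also lies within 10 kb of RNF223, the other AGRN peak within 10 kb of ISG15, and the LAMA5 peak within 10 kb of OSBPL2 and ADRM1. LAMB2 and NID2 had none.

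Of the collagen processing and crosslinking genes, 7 of 11 gained SMAD2/3, with 10 summits. Every lysyl oxidase-like gene was among them, while LOX itself was not. LOXL4 had 3 summits. The strongest stood 1.42 kb before the start (chr10:98269435-98269781, fold enrichment 7.6, -log10 p 27), the next in the upstream window shown above, and the last just beyond the far end of the gene, within 10 kb of R3HCC1L. LOXL1 had 1, located 4.85 kb beyond the gene (chr15:73956791-73957149, fold enrichment 9.62, -log10 p 36.9, pileup 52 reads). LOXL2 had 1 inside the gene (chr8:23353983-23354258, fold enrichment 12.4, -log10 p 29.8). LOXL3 had 2 of low enrichment, 4.49 and 3.78, the first inside the neighbouring gene HTRA2 and the second inside LOXL3 and the overlapping DOK1. PLOD1, a lysyl hydroxylase, held a peak 4.73 kb into the gene (chr1:11939275-11939553, fold enrichment 13.1, -log10 p 36.3), the second highest enrichment of the 64. PLOD2, the lysyl hydroxylase of collagen telopeptides, and P4HA3, a prolyl hydroxylase subunit, had 1 each. P4HA1 and P4HA2, the other prolyl hydroxylase subunits, had none, nor did SERPINH1, the collagen chaperone HSP47, whose nearest SMAD2/3 summit lay 13.5 kb away.

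In the elastic fibre group 5 of 10 genes gained SMAD2/3, with 7 summits. ELN, which encodes elastin, and MFAP2, a microfibril protein, had 2 each, and EFEMP1, EFEMP2 and FBLN2, all of the fibulin family, had 1 each. The stronger MFAP2 peak (chr1:16981537-16981805, fold enrichment 7.24, -log10 p 17.9) lies at its start and also within 10 kb of CROCC and ATP13A2, and the weaker lies inside CROCC. The EFEMP2 peak lies inside CFL1. The fibrillins FBN1 and FBN2, the fibulins FBLN1 and FBLN5, and EMILIN1 had none.

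Among the 9 other collagens, 5 genes gained SMAD2/3, with 13 summits. COL16A1, a collagen that associates with fibrils, had 5, a number reached by 0.2% of genes of similar length. Its strongest (chr1:31701032-31701601, fold enrichment 8.96, -log10 p 28.9) lay 2.84 kb into the gene, followed by chr1:31689894-31690136 (fold enrichment 7.49, -log10 p 18.9). COL18A1, the source of endostatin, had 3. COL8A1, of vessel walls, and COL27A1, a fibril-forming collagen of cartilage, had 2 each. COL6A1, a chain of the microfibrillar collagen VI, had 1 peak 7.25 kb outside the gene (chr21:45974359-45975170, fold enrichment 5.26, -log10 p 13.9). Its partner chains COL6A2 and COL6A3 had none within 10 kb. A SMAD2/3 peak with a fold enrichment of 16.7 and a -log10 p of 51.2 lay 18.9 kb outside COL6A3, beyond the limit used here. COL12A1 and COL13A1 had none.

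None of the 4 proteoglycan genes VCAN, BGN, DCN and LUM had a SMAD2/3 summit. Together with those named above they make up the 22 members without one. For these the nearest SMAD2/3 summit lay 13.5 to 1380 kb away, with a median of 79.2 kb, and within 50 kb for 9 of them. Members were also divided by acetylation in vehicle: of 42 with H3K27ac within 1 kb of a gene end, 26 had SMAD2/3, where 35.2% of all such genes did, and of the 10 without, 4 had it, where 16.2% of all such genes did.

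Most of the 64 peaks did not stand at a start. They were split between 37 in the gene and 27 outside it. For the 54 peaks of genes with an annotated start in the promoter table, 13 lay within 1 kb of a start, at 11 genes, 16 lay at 1 to 10 kb, and 25 lay further away. Counting starts of any gene, 25% (16 to 36.8%) of the 64 lay within 1 kb of one, against 28.7% (27.7 to 29.8%) of the other SMAD2/3 peaks near protein-coding genes. The summits were uneven between members: 14 genes had 1, 9 had 2, and 7 had 3 or more, and those 7 held 32 of the 64. Fold enrichment ran from 2.94 to 30.5 with a median of 5.52, and recovered pileup from 7 to 71 reads with a median of 17.5. Of the 64 peaks, 13 also lay within 10 kb of another protein-coding gene, and 6 of those inside it.

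**Figure D3:**
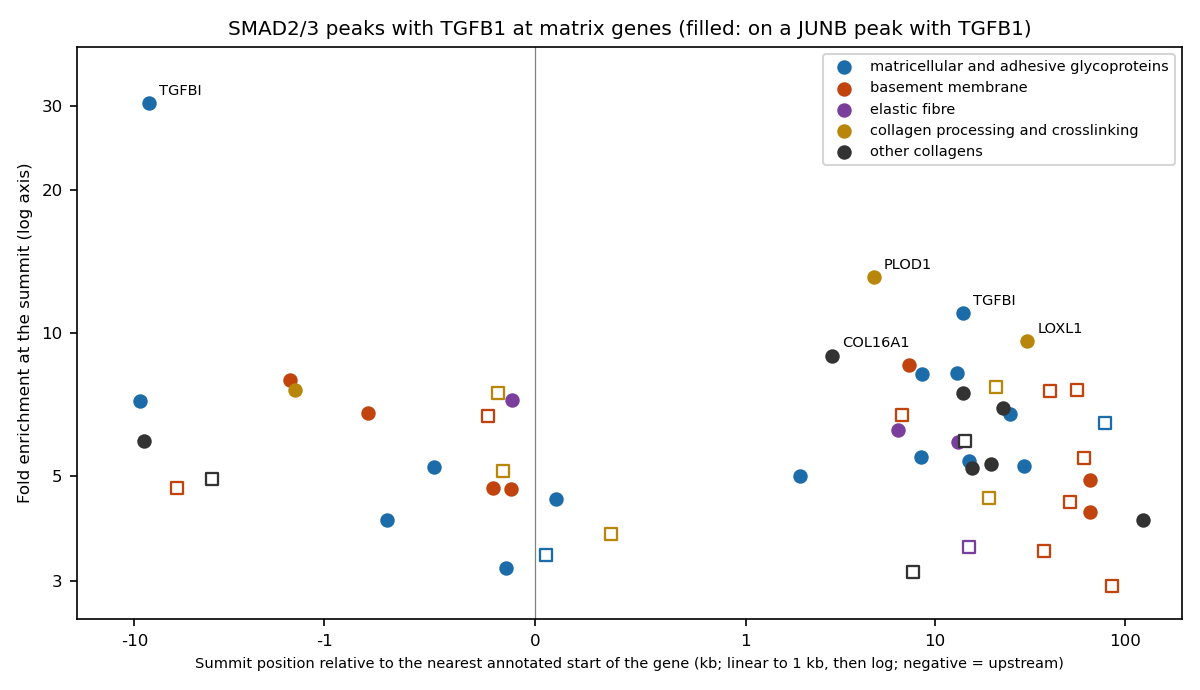
Each point is 1 SMAD2/3 peak of the TGFB1 library, placed by its summit's distance from the nearest annotated start of its matrix gene (kb) and by fold enrichment (log axis), coloured by role; filled circles overlap JUNB called with TGFB1 and open squares do not. The 54 peaks of genes with a start in the promoter table are drawn, and the TGFBI peak 8.4 kb upstream stands alone at 30.5.

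The next comparison asked which other marks lay on the 64 SMAD2/3 peaks. H3K27ac covered 54 of them (84.4%, 73.6 to 91.3%) in vehicle and 58 (90.6%, 81 to 95.6%) with TGFB1, against 78.3% and 83.7% of the 7072 other SMAD2/3 peaks near protein-coding genes. Only 4 peaks, 1 each at TGFBI, NID1, MFAP2 and LAMA3, lay on acetylation called with TGFB1 and not in vehicle. JUNB was on 28 (43.8%) in vehicle and on 41 (64.1%, 51.8 to 74.7%) with TGFB1, against 44.2% and 60.1% elsewhere. ATF3 was on 10 (15.6%) in vehicle and 29 (45.3%, 33.7 to 57.4%) with TGFB1, against 14.4% and 42.4%. MITF was on 7 (10.9%) and 10 (15.6%, 8.71 to 26.4%), against 11.7% and 11.1%. The intervals for matrix genes held the value of other genes for each antibody and treatment. They take the 64 peaks as independent, though 7 genes held 32 of them, and no test of a difference was made.

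**Figure D4:**
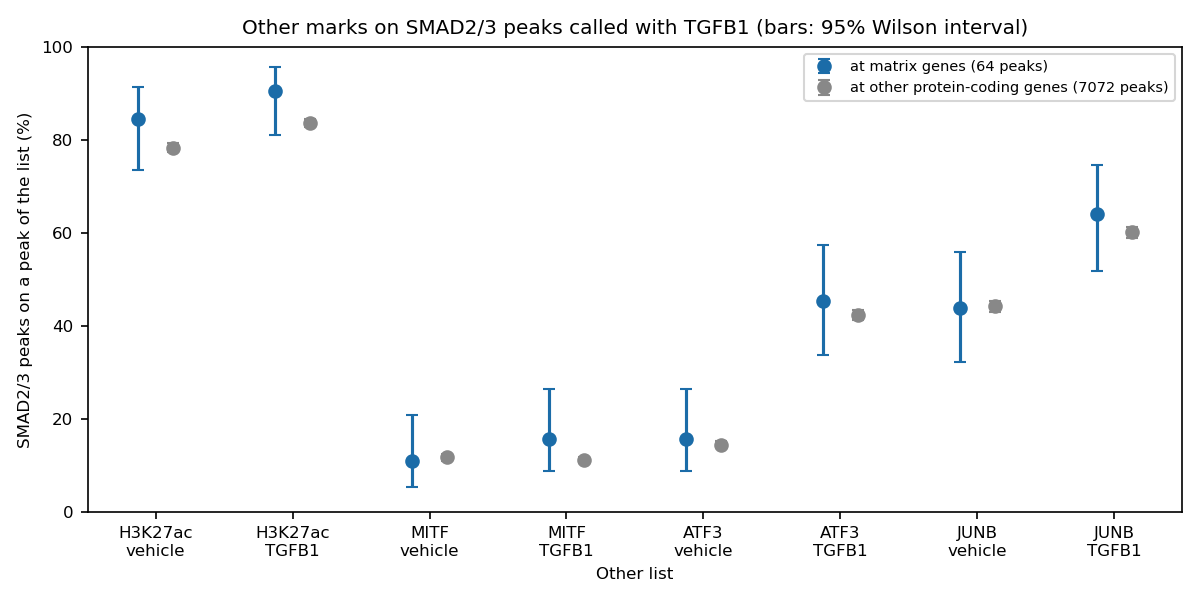
Points give the percentage of SMAD2/3 peaks (TGFB1 library) that overlap a peak of each other list, at matrix genes and at other protein-coding genes, and bars are 95% Wilson intervals for counting error. The intervals of the 64 matrix peaks include the value of the 7072 other peaks in all 8 columns.

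Combinations divided the 64 peaks further. ATF3 and JUNB were both present with TGFB1 on 28, and JUNB without ATF3 on 13. H3K27ac with none of JUNB, ATF3 and MITF marked 18 (28.1%, 18.6 to 40.1%), the same share as elsewhere (28.1%). This class held both LOXL4 peaks without JUNB, the HSPG2 and PLOD2 start peaks, the EFEMP1 and LAMA4 peaks, and peaks of NID1, COL16A1 and COL18A1. All 5 antibodies had a peak with TGFB1 at 7 sites (10.9%, 5.4 to 20.9%, against 5.56%), 1 each at TGFBI, LOXL2, AGRN, LAMC1, COL16A1, COL18A1 and COL6A1. At 2 sites, in NID1 and upstream of LAMC1, SMAD2/3 had no other mark. The summit of the strongest TGFBI site lay in a gap of the vehicle acetylation. In vehicle the region carried 3 separate H3K27ac peaks, of which the last 2 (chr5:136019752-136020438 and chr5:136020820-136021471) flanked the summit. With TGFB1 a single peak of 4721 bp covered it (chr5:136017179-136021899, fold enrichment 31.4).

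The H3K27ac lists were compared to see how active chromatin at matrix genes differed between treatments. In both treatments 51 of 52 genes had at least 1 summit (98.1%), against 80.7% of all genes in vehicle and 80.9% with TGFB1, and against 87.5% and 87.8% of genes of similar length. POSTN, which encodes periostin, had none in either. The members held 355 summits before and 372 after the ligand, a ratio of 1.05 where all peaks near genes gave 1. With TGFB1, 22 genes had more summits and 14 had fewer, against 22.8% and 24.6% of all genes. A peak found with TGFB1 and not in vehicle was present at 32 genes (31.5% of all genes), and the reverse at 24 (30.6% of all genes). The members held a median of 5 H3K27ac summits in vehicle, against 3 for genes of similar length and 2 for all genes. They thus had more peaks that could differ, and the shares of changed genes were not computed for genes of similar length. Summed over members, the length under H3K27ac peaks was 306 kb for vehicle and 338 kb for the ligand, a ratio of 1.1 against 1.05 over all genes. By gene the median ratio was 1.11, against 1.02 over all genes. With TGFB1 the length was longer at 30 genes (58.8%) and shorter at 21. Over all genes with acetylation in vehicle, it was longer at 55.7%, a similar share. The TGFB1 library was also slightly deeper, at 23.2 against 21.5 M implied reads, and the part of that in these ratios was not tested.

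TGFBI had the largest gain in length. Its acetylated length was 9.09 kb in vehicle and 17.9 kb with TGFB1, while its summits numbered 13 and 14, as separate peaks became joined. At ELN the length was 1.79 and 3.71 kb with 4 and 7 summits, and at MFAP2 3.64 and 5.88 kb with 3 and 6. At TNC it was 13.1 and 17.9 kb with 16 and 17 summits, and at SPARC 9 and 10.9 kb with 13 and 18. These 5 genes also gained SMAD2/3. The collagen modifiers P4HA3 (1.42 and 3.03 kb), PLOD2 (1.8 and 3.19 kb) and LOX (0.341 and 0.814 kb) were longer with TGFB1 as well, the last without SMAD2/3. FBLN2, from 0.236 to 0.945 kb, had the highest ratio and very little acetylation in either library. FN1 had 2 summits in each, with 0.795 and 1.25 kb. NID1 went from 12 to 18 summits and HSPG2 from 9 to 14, with lengths of 13 and 14 kb and of 8.11 and 9.5 kb.

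Other members had fewer summits or less length with TGFB1. LAMC1, the member with the most H3K27ac summits, had 27 in vehicle and 22 with TGFB1, and 16.3 and 13.1 kb of length, with 10 peaks found in vehicle alone. LAMB1 had 22.2 and 19.2 kb, though its summits were 17 and 16. THBS1 went from 7 to 4 summits with nearly equal length (6 and 5.86 kb). PLOD1 and COL16A1 each had 14 and 12 summits but more length with TGFB1, and FBN1 had 9 and 7. COL12A1 had 2.7 and 1.79 kb, and BGN 0.48 and 0.192 kb. A gain of SMAD2/3 was found at genes whose acetylated length was longer and at genes where it was shorter.

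**Figure D5:**
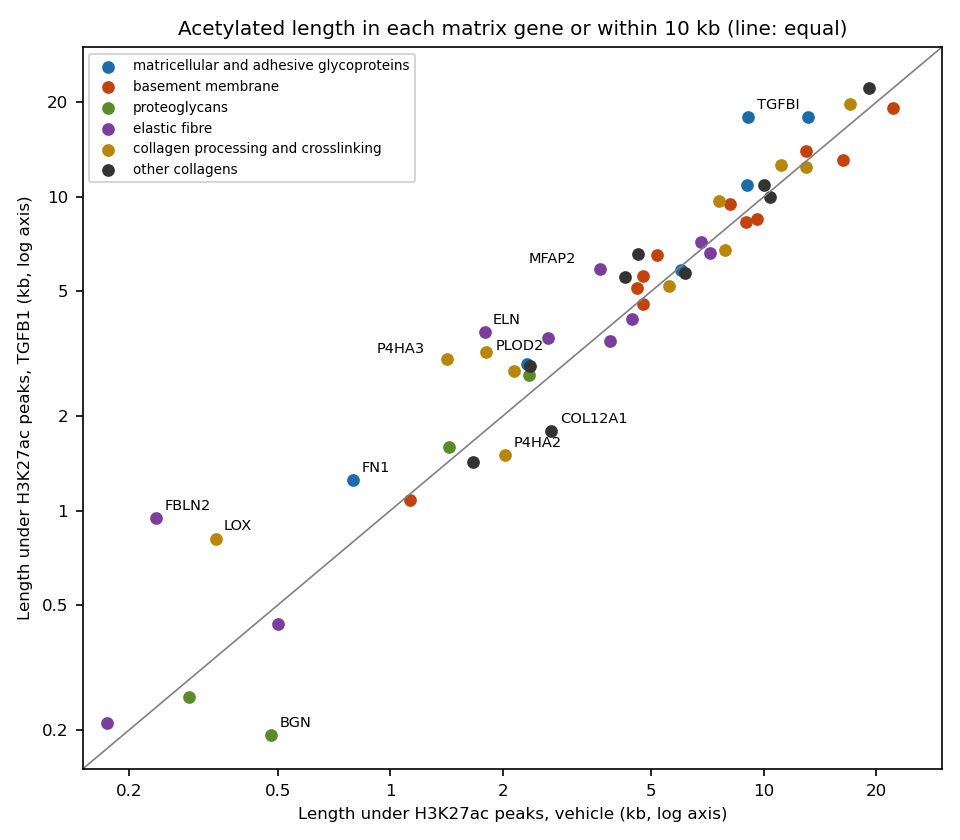
Points are the 51 matrix genes with H3K27ac, placed by the length under H3K27ac peaks (kb, log axes) in vehicle and with TGFB1, coloured by role, with the line of equal length. TGFBI moves from 9.09 to 17.9 kb, and COL12A1, P4HA2 and BGN lie below the line; labelled genes have a ratio of at least 1.5 or at most 0.75.

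The H3K27ac peaks called with TGFB1 alone were mostly not where SMAD2/3 was called. By definition such a peak shares no bp with a vehicle H3K27ac peak, while 54 of the 64 SMAD2/3 peaks (84.4%) overlapped one. A low overlap was thus largely set in advance. Acetylation that spread around a site already marked, as at the strongest TGFBI site, counts as shared. Of 81 H3K27ac peaks at matrix genes found with TGFB1 and not in vehicle, 2 overlapped SMAD2/3 (2.47%, 0.68 to 8.56%), against 57 of 291 shared peaks (19.6%, 15.4 to 24.5%) and 0 of 53 found in vehicle alone (0 to 6.76%). Among other peaks near genes the shares were 2.68% for those with TGFB1 alone and 12.5% for shared peaks. The members already held more SMAD2/3 summits than genes of similar length, so the higher share of their shared peaks is not a separate result. The strongest TGFB1-only peaks stood 0.656 kb before MFAP2 (chr1:16981862-16982616, fold enrichment 7.07), outside P4HA3, and inside TNC and LOX. The strongest vehicle-only peak lay inside COL6A2 (chr21:46122482-46122740, fold enrichment 8.53).

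JUNB, an AP-1 subunit that TGF-beta is known to induce, was at 39 of 52 genes in vehicle (75%) and 47 with TGFB1 (90.4%), against 55.9% and 72.5% of all genes and 64.6% and 80.2% of genes of similar length. Summits at the members numbered 144 and 275, a ratio of 1.91, where all peaks near genes gave 1.72. The JUNB libraries held 34.1 M implied reads in vehicle and 47.7 M with TGFB1. The part of that depth difference in the JUNB counts was not tested. More summits with TGFB1 were found at 40 genes and fewer at 2, against 53% and 9.01% of all genes. Shares of changed genes were not computed for genes of similar length. At COL13A1, a transmembrane collagen, the summits went from 4 to 14, at COL8A1 from 3 to 12, at LAMB1 from 3 to 11, at FBN1 (fibrillin-1, the core of microfibrils) from 6 to 13 and at LAMA3 from 10 to 16. FBN1 and COL13A1 had these gains without any SMAD2/3 summit. JUNB appeared at 10 genes that had none in vehicle (20.7% of all genes did so): LAMB2, VCAN, LUM, FBLN5, EMILIN1, LOX, LOXL3, P4HA1, COL6A2 and COL6A3. Its single vehicle peaks at THBS2 and P4HA2 were not called with TGFB1 (2 genes, against 4.17% of all genes). With both lists held to the same number of peaks near genes, 43 members had JUNB with TGFB1 (53.7% of all genes) and 39 in vehicle.

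The strongest JUNB peak of the TGFB1 library at a matrix gene stood 8.24 kb outside AGRN (chr1:1064175-1064543, fold enrichment 22, -log10 p 192), also within 10 kb of RNF223. It was followed by a peak inside TGFBI (chr5:136053023-136054002, fold enrichment 27.4, -log10 p 162) and peaks inside LAMA4 (chr6:112203896-112204606, fold enrichment 27.6), before LAMB3, beyond LOXL1 and inside LAMA5. All 6 were called in vehicle as well. Vehicle JUNB peaks at matrix genes were found again with TGFB1 in 82.6% of cases (75.6 to 88%), against 70.5% elsewhere near genes. JUNB peaks of the TGFB1 library at matrix genes lay on H3K27ac in 52.4% (46.5 to 58.2%), against 42.3% elsewhere, and on ATF3 in 46.2% (40.4 to 52.1%), against 36.5%. With TGFB1 the members held 372 H3K27ac and 218 ATF3 summits, where genes of similar length held 212 and 129. The higher shares on these marks are therefore not a separate result.

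ATF3, a stress-induced factor that can repress or activate with AP-1 partners, was at 37 genes in vehicle (71.2%) and 46 with TGFB1 (88.5%), against 48.8% and 70.2% of all genes and 56.8% and 79.4% of genes of similar length. Summits numbered 75 and 218, a ratio of 2.91 where all peaks near genes gave 2.23, in libraries of 6.37 and 28.1 M implied reads. More summits were found at 42 genes and fewer at 1, P4HA2 with 2 and 1, against 54.2% and 10.5% of all genes. As for JUNB, shares of changed genes were not computed for genes of similar length. COL8A1 had 1 and 12 summits, FBN1 4 and 14, LAMA3 3 and 11, COL27A1 1 and 8, and NID1 0 and 7. ATF3 was new at 9 genes (27.5% of all genes): LAMB2, NID1, DCN, EFEMP2, FBLN1, EMILIN1, LOX, COL6A1 and COL18A1. With both lists held to the same number of peaks near genes, 39 members had ATF3 with TGFB1 (47.4% of all genes) and 37 in vehicle.

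The strongest ATF3 peak lay 6.98 kb outside LOXL2 (chr8:23410082-23411871, fold enrichment 68, -log10 p 389), a site without SMAD2/3. The AGRN site of JUNB was the next (fold enrichment 51.1), then sites inside TGFBI (chr5:136057970-136059288, fold enrichment 47.2) and LAMA3 (chr18:23924648-23925201, fold enrichment 46.1). All 4 were called in vehicle too, and with JUNB. At FN1, an ATF3 peak 0.428 kb before the start (chr2:215436299-215436801, fold enrichment 30.4, -log10 p 124) lay on H3K27ac of both treatments, without JUNB or SMAD2/3, and was likewise called in vehicle (fold enrichment 7.4 in that list). FN1 carried its JUNB peak elsewhere, 25 kb into the gene and off H3K27ac (chr2:215410933-215411198, fold enrichment 18.6). The CRE motif was in 2.02% of all upstream windows. The FN1 upstream window, of chr2:215436069-215436318, was the single one among the 52 windows of the 42 matched matrix genes to hold it. The TGFB1 ATF3 peak reached only the far edge of that window, with its summit outside, and the vehicle ATF3 peak did not reach it. Whether the motif lies under the peak was not determined. ATF3 peaks of the TGFB1 library at matrix genes lay on JUNB in 57.8% (51.2 to 64.2%), against 39.9% of ATF3 peaks near other genes. The members held 275 JUNB summits with TGFB1 where genes of similar length held 141, so this higher share is not a separate result. Each of the 30 genes with SMAD2/3 also had ATF3 and JUNB with TGFB1, as did 84.2% of all genes with a SMAD2/3 summit. Over all genes, with or without SMAD2/3, the combination was found at 23.8%.

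MITF, the lineage factor of melanocytes, was at few matrix genes: 11 in vehicle (21.2%) and 16 with TGFB1 (30.8%), against 23.3% and 21.7% of all genes and 25.7% and 24% of genes of similar length. Summits numbered 17 and 22, a ratio of 1.29 where all peaks near genes gave 0.931. It appeared at 5 genes without it in vehicle, TGFBI, THBS1, LOXL2, COL6A1 and COL8A1 (7.3% of all genes), and disappeared from none (8.89% of all genes). LOXL2 and TGFBI each went from 0 to 2 summits and NID1 from 2 to 3, while EMILIN1 had 3 and 2, LAMA5 2 and 1, and LAMC1 2 and 1. These are small counts, and with a -log10 q of at least 5 both treatments had 10 members. The strongest sites were inside NID1: chr1:236024224-236024963 in vehicle (fold enrichment 41.3, -log10 p 140) and chr1:236024237-236024599 with TGFB1 (fold enrichment 19.9, -log10 p 96.6), the place of the strongest NID1 SMAD2/3 peak. Of the 22 MITF peaks with TGFB1, 11 overlapped SMAD2/3 (50%, 30.7 to 69.3%), against 21.2% (20 to 22.6%) of MITF peaks near other genes. In vehicle, 8 of 17 MITF peaks lay where SMAD2/3 was called after TGFB1 (47.1%, 26.2 to 69%), against 21% elsewhere. The 11 peaks with TGFB1 were at TGFBI, THBS1, NID1 (2 peaks), LAMC1, AGRN, EFEMP2, LOXL2, COL6A1, COL16A1 and COL18A1. The members held 64 SMAD2/3 summits where genes of similar length held 26.9, so these higher shares are not a separate result. Counted from the SMAD2/3 side, MITF with TGFB1 was on 15.6% of the 64 peaks, against 11.1% elsewhere. Reciprocal overlap of 50% lowered the 15.6% to 3.12%.

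POSTN was the single member with no peak of any transcription factor in any list, against 10.9% of all genes. BGN and DCN, small leucine-rich proteoglycans of stroma, had no JUNB, MITF or SMAD2/3. BGN had 1 ATF3 summit in each treatment and DCN 0 and 2. FBLN5, COL6A2, COL6A3 and NID2 had no ATF3 and, with TGFB1, 1 to 3 JUNB summits each.

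The matrix genes outside the 52 were counted in the same way. Of 14 further collagens, fibrillar or of types IV and VII, 8 had SMAD2/3 with TGFB1 (57.1%), close to the 57.7% of the 52 genes. Those with the most summits were COL4A2 with 6 and COL7A1 with 4, and COL1A2 and COL3A1 had none. Of 18 metalloproteinases and their TIMP inhibitors, which degrade matrix or block its degradation, 6 had one (33.3%), close to the 28.2% of all genes. MMP2 had 4 and MMP16 and MMP17 had 2 each, while MMP1, MMP3 and MMP9 had none. Of 25 matrix receptors, 17 had SMAD2/3 (68%), with 6 summits at ITGA3, the laminin-binding integrin alpha chain, and 4 at ITGB8, an activator of latent TGF-beta. In vehicle 1 gene of each list had a SMAD2/3 summit: COL7A1, MMP2 and CD44. No test of a difference between these lists was made.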

How the data were processed

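Peaks were measured in 10 immunoprecipitated libraries of A375 cells, 1 for each antibody and treatment; 6 inputs were not analysed here. The samples carry 3 experiment dates, and each vehicle and TGFB1 pair shares its date. Per the submitters' processing notes, the authors used Bowtie, GRCh38 and MACS2 (version 2.0). The control input of each call, and the handling of duplicate reads, are not given in the sources used here. The fold enrichment is the ratio at the summit as deposited by the authors, and the -log10 p and -log10 q values are those of the peak caller, as deposited. All are used only to describe, rank or filter peaks within their own list.

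Genes came from the RefSeq table of GRCh38.p14, which gives gene bodies and no exons, so positions are given as in a gene or outside it. Distances to a start and upstream sequences came from the RefSeq promoter table, in which 8 of the 42 matched members have several starts. Summits were counted in each gene or within 10 kb, for every gene whose window held them. An overlap of 2 peaks needed 1 shared bp. Read pileups were solved from fold enrichment and -log10 p assuming a pseudocount of 1, and were whole within 0.01 reads for 99.98% of peaks or more. Library sizes (M stands for mega) were worked out from each list's smallest background and shortest peak, for an assumed genome of 2.7 Gb. Python 3.11.15, pandas 2.3.3, numpy 2.4.6, scipy 1.17.1 and matplotlib 3.10.9 were used. Counting, overlaps and the assignment of a summit to its nearest gene were tested on simulated data.

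The members and lists were chosen with earlier results of these data known. All members are accounted for by role. The members with the 12 highest SMAD2/3 peaks by -log10 p are given with positions, and for each other antibody up to 5 members with the largest gain and up to 5 with the largest loss of summits. Other members named for a value, such as those with a marked change in acetylated length, were singled out after their values were seen. The alternatives tried were a minimum -log10 q of 5, summits in the gene alone, equal list lengths, each summit given to 1 gene, reciprocal overlap of 50%, a 500 bp margin, the top 5000 peaks of the partner list, and summits inside the partner peak.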

Additional observations from a re-analysis of the deposited data

How the results depend on the processing

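No paired analysis was possible because each antibody and treatment had 1 library. Of 109 values recomputed under alternatives, 85 stayed close to the value reported and 24 moved; none can change sign. For SMAD2/3 with TGFB1, both the 30 members with a peak and the 30 with a TGFB1-only peak became 5 with equal list lengths, 1 with equal numbers of peaks near protein-coding genes (an alternative chosen after seeing the data) and 17 with summits in the gene alone. The first 2 settings keep only the strongest TGFB1 peaks. For MITF with TGFB1, the 16 members became 10 with a -log10 q of at least 5 and 10 in the gene alone, and the 8 with a TGFB1-only peak became 5 and 4. Counts for H3K27ac, ATF3 and JUNB stayed within 1.5 times under every alternative run. On the 64 SMAD2/3 peaks, the shares with marks of the TGFB1 libraries fell when the partner list was limited to its top 5000 peaks, to 23.4% for H3K27ac, 26.6% for JUNB and 7.81% for ATF3. Reciprocal overlap of 50% gave 1.56% for H3K27ac, 42.2% for JUNB, 28.1% for ATF3 and 3.12% for MITF, and a summit inside the partner peak gave 60.9% for H3K27ac and 7.81% for MITF. H3K27ac peaks are wider than SMAD2/3 peaks (median 545 and 294 bp at matrix genes), which limits reciprocal overlap. The lowest recovered pileups at members, 4 reads in vehicle ATF3 and 7 in SMAD2/3, MITF and H3K27ac, mark the weakest sites called at members at these depths.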

Other observations

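Some members are close neighbours on a chromosome. COL6A1 and COL6A2 are neighbours on chromosome 21 and encode chains of the same collagen VI molecule, yet COL6A1 had 1 SMAD2/3 summit with TGFB1 and COL6A2 had 0, with the nearest 44.6 kb away. DCN and LUM, neighbours on chromosome 12, had none, and the same SMAD2/3 peak, 561 and 632 kb away, was the nearest to each.

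Several members without SMAD2/3 within 10 kb had a nearest peak of fold enrichment above 8 at less than 100 kb. Beside COL6A3 at 18.9 kb (fold enrichment 16.7), these were FN1 at 92.7 kb (14.2), COL6A2 at 44.6 kb (10.3), FBN2 at 29.6 kb (8.57), COL13A1 at 15.5 kb (8.24) and FBLN1 at 38.1 kb (8.06). None of these peaks was on the vehicle list, and all but the COL13A1 peak lay on JUNB of the TGFB1 library. Whether any of them acts on the named gene was not tested.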
